A study of Homo sapiens with 7 samples.

Results

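The genes described here encode the proteins that start autophagosome formation, attach ubiquitin-like proteins to the growing membrane and tether cargo to it. A list of 34 autophagy genes was taken from the table of 19978 genes by matching Ensembl identifiers to symbols. All 34 were found, and all 34 passed the expression filter that left 14863 genes for testing. HEK-293, an established human embryonic kidney cell line, was kept for 48 h in 3 conditions before polyadenylated RNA was sequenced. The 2 control samples were kept at pH 7.4 and the 3 acidosis samples at pH 6.6. The 2 samples of the third group received, at pH 7.4, 10 µM SRPIN340, an inhibitor of the kinases that phosphorylate SR splicing factors. All 3 groups received an equal amount of DMSO, the vehicle, by the methods of the study. The study compared acidified cells with control cells and asked whether the inhibitor had similar effects, mainly on splicing. For the autophagy genes, the comparisons ask how the level of each transcript differed between these media.

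In macroautophagy, the ULK1 kinase complex and a class III phosphatidylinositol 3-kinase complex mark the site where a membrane cup, the phagophore, forms around cell contents. ATG9A, the ATG2 lipid transfer proteins and the WIPI proteins enlarge the cup, and a pair of ubiquitin-like conjugation pathways couple ATG12 to ATG5 and proteins of the ATG8 family to membrane lipid. Cargo receptors such as p62, the product of SQSTM1, bind both ubiquitinated cargo and ATG8 proteins, and the closed autophagosome then fuses with a lysosome. Many of these proteins are themselves consumed in the process, so a transcript level is not a measure of autophagic flux.

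Library totals lay between 13615816 and 24110460 counts, with the 2 lowest totals in acidosis, so genes of low expression were measured less precisely there. The 100 most abundant genes held 15.2% to 15.4% of the counts at pH 7.4 and 24.1% to 24.8% in acidosis, and the mitochondrially encoded share was 2.38% to 2.89% against 0.307% to 0.346%. The summed level of 6 markers of HEK-293 cells, dominated by VIM, was 1005 to 1080 CPM (counts scaled to a common library total after TMM normalization, the trimmed mean of M values) at pH 7.4 and 2950 to 3006 CPM in acidosis. The kidney lineage gene PAX2 was at 7.06 and 6.49 CPM in control and at 1.19, 2.48 and 1.81 CPM in acidosis. For 10 markers of other cell types, of which COL1A1 held most of the sum, the corresponding ranges were 34.6 to 43.2 CPM and 60.6 to 68.8 CPM, and the T cell marker CD3E was at 0 in all 7 samples. The part of these differences in the results for autophagy genes was not tested. In bulk RNA, fewer cells of one kind and less RNA per cell cannot be told apart.

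In acidosis, the listed transcripts of the ATG8 family and of the cargo receptors were higher than in control by TMM scaling, whereas the genes of the upstream complexes and of the conjugation pathways moved in both directions. Of the 34 genes, 17 passed the test as higher and 8 as lower (edgeR's quasi-likelihood test, Benjamini-Hochberg adjusted p under 0.05), while 9 did not pass. Among all tested genes, 32.5% passed as higher and 34.2% as lower. A change beyond 1 on the log2 scale was reached upward by 6 members, namely ATG12, MAP1LC3A, MAP1LC3B, GABARAP, GABARAPL1 and OPTN, and downward by ATG101 and ATG7. The same limit was passed by 14.4% of all tested genes upward and by 19.1% downward. The median log2 fold change of the 34 genes was 0.33, against -0.05 for all tested genes. It was 0.21 when the first acidosis sample was left out. Every acidosis sample lay above every control sample for 18 members (37.0% of all genes) and below for 10 members (39.4% of all genes), and the groups overlapped for 6.
The number of higher members depended on how the libraries were scaled. The TMM factors were 1.17 to 1.21 at pH 7.4 and 0.782 to 0.800 in acidosis, and scaling by total count alone moved the median of all tested genes to -0.63. With that scaling, 7 members passed as higher and 17 as lower, beside 16.2% and 55.0% of all tested genes, and the median of the members was -0.25. Changes in acidosis are therefore given relative to the typical gene, and members whose direction depended on the scaling are named as such.

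**Figure D1:**
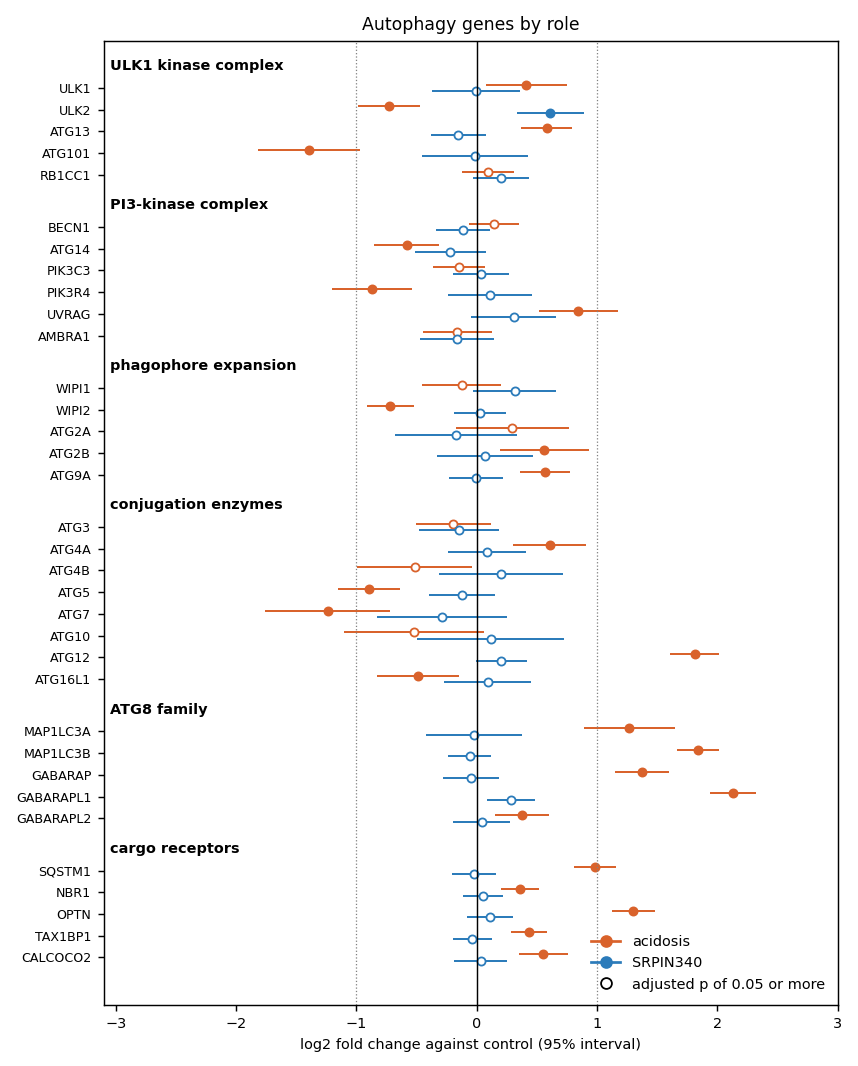
Log2 fold changes against control (x axis) for the 34 autophagy genes (y axis, grouped by role), with acidosis in orange and SRPIN340 in blue. Points are estimates from edgeR with TMM scaling, horizontal lines are 95% intervals, open points did not pass the test, and dotted lines mark a change of 1 in either direction. All 10 ATG8 and receptor genes lie to the right of 0 in acidosis, 4 of them (GABARAPL2, NBR1, TAX1BP1 and CALCOCO2) turning to the left with scaling by total count, and ULK2 is the only gene with a filled blue point.

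Promoter sequences from RefSeq (GRCh38.p14) were matched for 31 of the 34 genes. Only 1 start per gene was used, so promoters at other starts were not searched. For ATG5, AMBRA1, BECN1 and MAP1LC3B, among others, the window lay inside the annotated gene. MAP1LC3A, RB1CC1 and UVRAG were not matched. The 100 bases before the RefSeq start are printed, 5′ to 3′ on the strand of the gene, for the members that rose past the limit together, with any motif that was searched in capitals. They are chr16:87392236-87392335 (plus strand) for MAP1LC3B, chr12:10212777-10212876 (plus) for GABARAPL1, chr17:7242450-7242549 (minus) for GABARAP, chr5:115841566-115841665 (minus) for ATG12 and chr10:13099982-13100081 (plus) for OPTN.
MAP1LC3B: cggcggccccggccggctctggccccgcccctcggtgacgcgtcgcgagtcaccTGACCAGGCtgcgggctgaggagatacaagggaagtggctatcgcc
GABARAPL1: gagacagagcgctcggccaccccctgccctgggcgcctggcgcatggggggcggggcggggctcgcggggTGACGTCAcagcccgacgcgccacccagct
GABARAP: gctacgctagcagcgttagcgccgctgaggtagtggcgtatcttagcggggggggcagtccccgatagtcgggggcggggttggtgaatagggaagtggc
ATG12: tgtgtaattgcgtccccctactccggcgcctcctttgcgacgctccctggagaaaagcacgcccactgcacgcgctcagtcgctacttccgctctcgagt
OPTN: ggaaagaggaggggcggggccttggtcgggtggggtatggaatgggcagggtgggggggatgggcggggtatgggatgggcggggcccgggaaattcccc
The E-box CACGTG, the core of the site bound by TFEB and TFE3, was searched on both strands in windows of 300 bases, 250 before and 50 after the start. It was present in 2 of the 31 windows (6.45%), those of ATG14 and ATG3, against 9.82% of the windows of 11821 tested genes. The 100 bases of these genes (chr14:55411831-55411930 and chr3:112561963-112562062, both minus strand) are shown too, with the E-box and its flanking T or A in capitals. Any relation of the motif to the changes in acidosis was not tested.
ATG14: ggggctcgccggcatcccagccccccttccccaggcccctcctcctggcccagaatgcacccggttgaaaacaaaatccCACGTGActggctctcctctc
ATG3: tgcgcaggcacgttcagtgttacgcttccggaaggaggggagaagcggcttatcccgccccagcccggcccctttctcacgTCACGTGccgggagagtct
The extended form TCACGTG, which contains the E-box, was present in the same 2 windows and in 5.57% of all windows. The core of the antioxidant response element, TGACNNNGC, was present in 3 of 31 windows (9.68%), those of MAP1LC3B, ATG101 and CALCOCO2, and in 14.7% of all windows. The core TGATGNAA of the site for the stress factor ATF4 was in 0 of 31 and in 1.65% of all. The cyclic AMP response element TGACGTCA, searched after the sequence of GABARAPL1 had been seen, was in that 1 window (3.23%) and in 3.11% of all windows. These matches describe the letters in the windows and not binding.

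The ATG8 family comprises small ubiquitin-like proteins that become attached to phosphatidylethanolamine in the phagophore and recruit cargo receptors. With acidosis, all 5 family members among the 34 genes rose by TMM scaling, 4 of them past the limit, and the median change was 1.37 on the log2 scale. The family genes MAP1LC3C (1.37, adjusted p = 0.064) and MAP1LC3B2 (1.71, adjusted p = 0.066), which were measured at low counts and belong to the further core genes described later, did not pass. GABARAPL2 was the exception in size and lost its direction with scaling by total count (-0.20).
GABARAPL1 (ENSG00000139112.11, chromosome 12 of GRCh38, 10212458 to 10223128, plus strand) had the largest rise among the 34 genes. It stood at 45.5 and 46.3 CPM in control, 58.1 and 53.7 CPM with SRPIN340, and 206, 190 and 206 CPM in acidosis. Every acidosis sample was thus over every sample at pH 7.4 by a wide margin. The log2 fold change in acidosis was 2.13 (adjusted p = 3.59e-08, standard error 0.0816), a 4.37-fold difference with a 95% interval of 3.84 to 4.96.
MAP1LC3B (ENSG00000140941.14, chromosome 16, 87383953 to 87404779, plus strand) encodes LC3B, the protein most often followed as an autophagosome marker. Its level was 119 and 116 CPM in control, 108 and 117 CPM with SRPIN340, and 399, 417 and 444 CPM in acidosis. The control and SRPIN340 samples overlapped, and the acidosis samples lay far above both groups. In acidosis the gene rose by 1.84 on the log2 scale (standard error 0.0746, adjusted p = 4.59e-08), or 3.58-fold (95% interval 3.19 to 4.02).
GABARAP (ENSG00000170296.10, chromosome 17, 7240008 to 7242449, minus strand), the founding member of its subfamily, was at 143 and 165 CPM in control, 152 and 145 CPM with SRPIN340, and 416, 355 and 421 CPM in acidosis. The second acidosis sample was the lowest of that group and still exceeded both other groups. This corresponded to a log2 fold change of 1.37 (adjusted p = 1.25e-06, standard error 0.0957).
MAP1LC3A (ENSG00000101460.13, chromosome 20, 34546854 to 34560345, plus strand), which encodes LC3A, was measured at low counts. Its values were 6.84 and 7.86 CPM in control, 7.48 and 6.98 CPM with SRPIN340, and 19.9, 16.8 and 16.3 CPM in acidosis. The acidosis samples did not overlap the others, and the log2 fold change was 1.27 (adjusted p = 8.2e-05, standard error 0.164).
GABARAPL2 (ENSG00000034713.8, chromosome 16, 75566375 to 75577881, plus strand), also known as GATE-16, was at 73.3 and 74.6 CPM in control, 73.6 and 78.5 CPM with SRPIN340, and 98.2, 85.7 and 104 CPM in acidosis. The acidosis samples lay above all others, but the step was small: the log2 fold change was 0.38 (adjusted p = 0.00581, standard error 0.0946).
The unequal rise within the subfamily is also visible inside each library, where a ratio does not depend on the scaling between samples. The log2 ratio of GABARAPL1 to GABARAPL2 was -0.69 in each control library, -0.34 and -0.55 with SRPIN340, and 1.07, 1.15 and 0.99 in acidosis. Only the change of this ratio, 1.76 between the means of acidosis and control, can be read, because levels of different genes were not compared per length.
GABARAP and MAP1LC3B share sequence with other genes, so their counts may be split. Of the 31-base runs in the GABARAP transcript, 53.3% also occur in other genes, mostly in an annotated readthrough gene on the same strand, and 21.8% of those of MAP1LC3B, mostly in MAP1LC3B2. The latter paralog was at 0.190 to 1.43 CPM in all samples.

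Cargo receptors link ubiquitinated proteins, organelles and bacteria to ATG8 proteins. All 5 receptor genes passed the test as higher in acidosis, with a median log2 fold change of 0.55. With scaling by total count, 2 passed as higher (SQSTM1 and OPTN), NBR1 passed as lower, and TAX1BP1 and CALCOCO2 did not pass.
OPTN (ENSG00000123240.17, chromosome 10, 13099449 to 13138308, plus strand) encodes optineurin, a receptor in mitophagy and in the clearance of bacteria. It was at 93.4 and 85.2 CPM in control, 101 and 92.2 CPM with SRPIN340, and 219, 218 and 223 CPM in acidosis. The acidosis samples were tightly grouped and far above the rest. The gene rose by 1.30 on the log2 scale (standard error 0.0761, adjusted p = 3.92e-07), or 2.47-fold (95% interval 2.19 to 2.78).
SQSTM1 (ENSG00000161011.20, chromosome 5, 179806398 to 179838078, plus strand) was at 113 and 125 CPM in control, 119 and 114 CPM with SRPIN340, and 244, 233 and 228 CPM in acidosis. Its log2 fold change of 0.98 (adjusted p = 1.98e-06, standard error 0.0736) fell just short of the limit of 1. Both genes kept the call under scaling by total count, with 0.73 for OPTN and 0.41 for SQSTM1.
The other receptors changed less. CALCOCO2 (NDP52), a receptor for bacteria and damaged mitochondria, was at 100 and 105 CPM in control, 103 and 107 CPM with SRPIN340, and 153, 163 and 136 CPM in acidosis (log2 fold change 0.55, adjusted p = 0.000313, standard error 0.0868). TAX1BP1, a receptor for protein aggregates, was at 170 and 161 CPM in control, 162 and 160 CPM with SRPIN340, and 220, 229 and 222 CPM in acidosis (0.43, adjusted p = 0.000196, standard error 0.0636). NBR1, which cooperates with p62, was at 160 and 158 CPM in control, 161 and 168 CPM with SRPIN340, and 206, 195 and 210 CPM in acidosis (0.36, adjusted p = 0.000835, standard error 0.0656). For each of these 3 genes the acidosis samples lay above all other samples on TMM-scaled CPM, and the direction turned with scaling by total count (-0.02 for CALCOCO2, -0.14 for TAX1BP1 and -0.22 for NBR1).

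**Figure D2:**
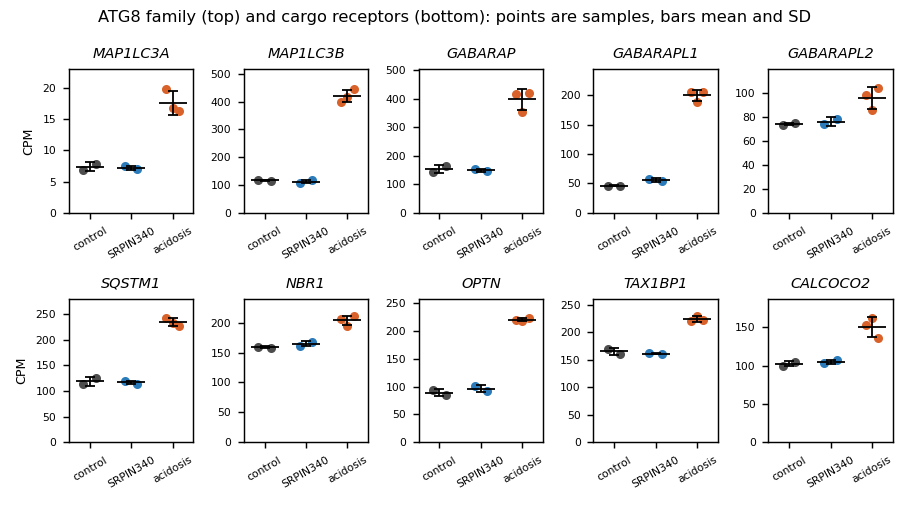
TMM-scaled CPM (y axis, from 0, a separate scale for each gene) of the ATG8 family (top) and the cargo receptors (bottom) in control, SRPIN340 and acidosis samples. Points are single samples and bars are the mean with the SD. GABARAPL1 stood at 190 to 206 CPM in acidosis against 45.5 to 58.1 CPM in the other samples, whereas the smaller steps of GABARAPL2, NBR1, TAX1BP1 and CALCOCO2 turned direction with scaling by total count.

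The conjugation pathways showed opposite movements among transcripts whose proteins act on each other. ATG7 is the E1-like enzyme that activates both ATG12 and the ATG8 proteins, ATG10 and ATG3 are the respective E2-like enzymes, and ATG12-ATG5 with ATG16L1 forms the ligase that places ATG8 proteins on the membrane. Of the 8 genes, ATG12 and ATG4A passed as higher and ATG5, ATG7 and ATG16L1 as lower, with a median log2 fold change of -0.50.
ATG12 (ENSG00000145782.13, chromosome 5, 115828200 to 115841837, minus strand) was at 45.2 and 48.3 CPM in control, 51.2 and 56.6 CPM with SRPIN340, and 156, 167 and 169 CPM in acidosis. All acidosis samples were well above all others. The log2 fold change was 1.81 (adjusted p = 1.2e-07, standard error 0.0864), or 3.51-fold (95% interval 3.07 to 4.02), and it was 1.24 with scaling by total count.
ATG7 (ENSG00000197548.13, chromosome 3, 11272309 to 11557665, plus strand) was at 19.3 CPM in each control library, 16.4 and 15.2 CPM with SRPIN340, and 6.24, 11.6 and 7.05 CPM in acidosis. The acidosis samples varied among themselves, and the highest of them was still below every sample at pH 7.4. The gene fell by 1.24 on the log2 scale (standard error 0.227, adjusted p = 0.000849), or 2.36-fold.
ATG5, the partner to which ATG12 is joined, was at 64.2 and 56.3 CPM in control, 52.3 and 58.3 CPM with SRPIN340, and 35.6, 30.5 and 31 CPM in acidosis. The acidosis samples were the 3 lowest, and the log2 fold change was -0.89 (adjusted p = 6.27e-05, standard error 0.111).
Thus the transcripts for the components of the ATG12-ATG5 conjugate moved apart. The log2 ratio of ATG12 to ATG5 within a library was -0.50 and -0.22 in control, -0.03 and -0.04 with SRPIN340, and 2.13, 2.46 and 2.45 in acidosis, a change of 2.71 between the means of acidosis and control. For ATG12 and ATG7, the corresponding change was 3.09.
ATG4A, a protease that processes ATG8 proteins, rose by 0.61 (adjusted p = 0.00255) and was at 0.03 with scaling by total count, where it did not pass. ATG16L1 was lower by TMM scaling (-0.49, adjusted p = 0.0147), and this call was lost without the second control sample (adjusted p = 0.11). ATG3 (-0.20), ATG4B (-0.52, adjusted p = 0.0522) and ATG10 (-0.52, adjusted p = 0.0981) did not pass. All 3 passed as lower with scaling by total count, at -0.77, -1.09 and -1.09. In ATG4B and ATG10, 1 acidosis sample lay near or within the control range. ATG4B was at 38.7 and 45.3 CPM in control and at 40, 22.9 and 24.4 CPM in acidosis, and without the first acidosis sample it passed as lower (-0.83, adjusted p = 0.000445). ATG10 was at 9.91 and 9.9 CPM in control and at 4.81, 6.43 and 9.72 CPM in acidosis, and without the third acidosis sample it passed as lower (-0.83, adjusted p = 0.00602).

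**Figure D3:**
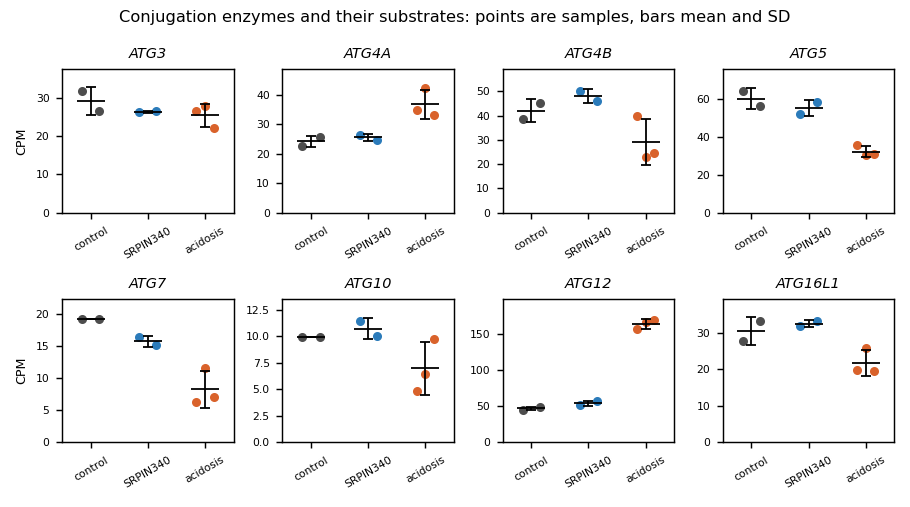
TMM-scaled CPM (y axis, from 0, a separate scale for each gene) of the 8 conjugation genes in control, SRPIN340 and acidosis samples. Points are single samples and bars are the mean with the SD. ATG12 rose to 156 to 169 CPM in acidosis while ATG5 and ATG7 fell below all samples at pH 7.4, and the rise of ATG4A was not seen with scaling by total count.

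The ULK1 complex, which receives signals from the nutrient and energy sensors mTORC1 and AMPK, contains the kinases ULK1 or ULK2, the adaptors ATG13 and ATG101, and the scaffold FIP200, the product of RB1CC1. In acidosis, ULK1 and ATG13 passed as higher, ULK2 and ATG101 as lower, and RB1CC1 did not pass, so the median of the 5 genes was 0.09. Under scaling by total count, ULK1 turned to -0.16 and ATG13 was at 0.00, and neither passed, whereas RB1CC1 turned to -0.48 and passed as lower.
ATG101 (ENSG00000123395.15, chromosome 12, 52069246 to 52077495, plus strand), which stabilizes ATG13 in the complex, had the largest fall among the 34 genes. It was at 18.4 and 19.3 CPM in control, 19.8 and 17.6 CPM with SRPIN340, and 9.03, 6.34 and 5.93 CPM in acidosis. The acidosis samples were all far below the others, with a log2 fold change of -1.39 (adjusted p = 0.000102, standard error 0.186), or 2.63-fold lower.
The kinase genes moved in opposite directions. ULK1 (ENSG00000177169.10, chromosome 12, 131894622 to 131923150, plus strand) was at 49.5 and 56 CPM in control, 58.8 and 46.4 CPM with SRPIN340, and 82.8, 63.4 and 63.8 CPM in acidosis. The change was small beside the spread within groups (log2 fold change 0.41, adjusted p = 0.0317, standard error 0.147). It no longer passed without the first acidosis sample (adjusted p = 0.0974), the first control sample (0.189) or the second control sample (0.0651).
ULK2 (ENSG00000083290.20, chromosome 17, 19770829 to 19867936, minus strand) was at 110 and 104 CPM in control, 170 and 156 CPM with SRPIN340, and 74.9, 58.9 and 58.5 CPM in acidosis. The 3 groups were separate, with the SRPIN340 samples highest and the acidosis samples lowest. In acidosis the log2 fold change was -0.73 (adjusted p = 0.000264, standard error 0.112), and it was -1.30 with scaling by total count.
Within a library, the log2 ratio of ULK2 to ULK1 was 1.15 and 0.89 in control, 1.53 and 1.75 with SRPIN340, and -0.14, -0.11 and -0.13 in acidosis. The change between the means was -1.14 in acidosis and 0.62 with SRPIN340, both against the same control samples.

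The class III phosphatidylinositol 3-kinase complex produces the lipid signal at the phagophore. Its catalytic subunit VPS34, encoded by PIK3C3, and the scaffold Beclin 1, encoded by BECN1, were not among the genes that passed (log2 fold changes of -0.15 and 0.14), nor was the regulator AMBRA1 (-0.16). In control, BECN1 was at 88.5 and 89.5 CPM, and in acidosis at 105, 90.9 and 98.8 CPM. The 95% interval of its difference was -0.06 to 0.34, and with scaling by total count it turned to -0.43 and passed as lower. Under that scaling PIK3C3 (-0.72) and AMBRA1 (-0.74) passed as lower too.
Among the other subunits, PIK3R4 and ATG14 were lower and UVRAG was higher. PIK3R4 (ENSG00000196455.8, chromosome 3, 130678934 to 130746829, minus strand), which encodes the regulatory subunit VPS15, was at 35.1 and 34.5 CPM in control, 34.5 and 40.7 CPM with SRPIN340, and 15.9, 20 and 21.5 CPM in acidosis. Every acidosis sample was below every other sample. The log2 fold change was -0.87 (adjusted p = 0.00042, standard error 0.143).
ATG14 and UVRAG, which occupy the same place in alternative forms of the complex, differed in direction. ATG14, the subunit of the form that initiates autophagosomes, went from 26.2 and 24.4 CPM in control to 16.2, 16.8 and 17.7 CPM in acidosis (log2 fold change -0.58, adjusted p = 0.00158, standard error 0.118). UVRAG, the subunit of the form that acts on endosomes and in maturation, went from 16.4 and 21.7 CPM to 36.8, 34.3 and 31.5 CPM (0.85, adjusted p = 0.000517, standard error 0.143). For both genes, control and acidosis samples were separate. With scaling by total count, UVRAG was at 0.27 and did not pass (adjusted p = 0.121).

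Among the genes of phagophore expansion, WIPI2 was lower and ATG2B and ATG9A were higher by TMM scaling, while WIPI1 (-0.13) and ATG2A (0.30) did not pass. With scaling by total count, WIPI1 passed as lower (-0.70), and ATG2A turned to -0.28 and did not pass. WIPI2 (ENSG00000157954.15, chromosome 7, 5190196 to 5233840, plus strand) encodes the lipid-binding protein that recruits ATG16L1 to the phagophore. It was at 79 and 90 CPM in control, 87.1 and 85 CPM with SRPIN340, and 51.4, 51.7 and 51.1 CPM in acidosis. The acidosis samples were nearly identical and lay below all others, with a log2 fold change of -0.72 (adjusted p = 4.42e-05, standard error 0.0846).
ATG9A, the membrane-spanning scramblase, rose by 0.57 (adjusted p = 0.000348), and ATG2B, a lipid transfer protein, by 0.56 (adjusted p = 0.0117). Both were at -0.01 with scaling by total count. The call of ATG2B was lost without the first (adjusted p = 0.0598) or the second control sample (0.0695), and ATG2A passed without the second acidosis sample (0.49, adjusted p = 0.0107). In ATG9A, 48.2% of the 31-base runs are shared with an annotated readthrough gene on the same strand, so its counts may be split.
In all, 14 members have exons that overlap another gene, GABARAP and ATG9A on the same strand and the others, ATG12, ATG7, MAP1LC3B, SQSTM1 and OPTN among them, on the opposite strand. Whether the counting used strand was not stated, so reads of such neighbours could not be told apart.

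With SRPIN340, the autophagy genes stayed close to control. Of the 34 members, 1 passed as higher and 0 as lower, where 0.767% of all tested genes passed as higher and 1.53% as lower. At an unadjusted p under 0.05, edgeR gave 3 members (ULK2, GABARAPL1 and ATG12, all higher), beside 2621 of all 14863 tested genes. DESeq2 gave 2 members, beside 2379 of 18021 genes, with the same 1 higher and 0 lower calls after adjustment. Of all 18021 genes, 323 passed as higher and 551 as lower in DESeq2 after adjustment. The median log2 fold change of the members in edgeR was 0.03 and the range -0.29 to 0.61.
The gene that passed was ULK2, whose values are given with the ULK1 complex. Its log2 fold change with SRPIN340 was 0.61 (95% interval 0.34 to 0.88, adjusted p = 0.0378, standard error 0.12), or 1.53-fold. DESeq2 gave an adjusted p of 0.000204. The call was lost with the replicate number as a block (adjusted p = 0.0672) and without any 1 of the 4 samples, where the log2 fold change was 0.55 to 0.67 and the adjusted p 0.140 to 0.279.
GABARAPL1 was higher in both SRPIN340 samples than in both control samples. The difference of 0.28 (95% interval 0.09 to 0.47) did not pass after adjustment (adjusted p = 0.124). For ATG12 the estimate was 0.20 (0.00 to 0.41, adjusted p = 0.278). For the other ATG8 genes and the receptors, differences with SRPIN340 lay between -0.06 and 0.11. The interval of MAP1LC3B was -0.23 to 0.11 and that of OPTN -0.07 to 0.29, both below the changes in acidosis of 1.84 and 1.30. Both comparisons use the same control samples.

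Tested directly, acidosis differed from SRPIN340 in 29 of the 34 genes, of which 18 were higher and 11 lower in acidosis. The background was 32.8% higher and 35.0% lower. With scaling by total count, 7 members passed as higher and 18 as lower, beside 15.8% and 56.9% of all tested genes. The ATG8 and receptor genes were all higher in acidosis than with SRPIN340, with log2 differences of 0.31 for NBR1 to 1.90 for MAP1LC3B, and with scaling by total count GABARAPL2, NBR1, TAX1BP1 and CALCOCO2 turned negative here too. ULK2 had a difference of -1.34 (adjusted p = 3.81e-06, standard error 0.111), beyond the limit. ATG4B (-0.72, adjusted p = 0.012) and WIPI1 (-0.44, adjusted p = 0.0183), which did not pass against control, were lower in acidosis than with SRPIN340. BECN1 (0.26, adjusted p = 0.027) passed as higher and turned to -0.36 with scaling by total count. Without the first SRPIN340 sample, 7 genes in place of 11 passed as lower, and without the second acidosis sample the genes lower past the limit were 4 in place of 2. With all samples, 2213 of the 14863 tested genes were higher and 2935 lower past the limit in this comparison.

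Genes around this core were described from 4 further lists, whose counts stand beside the shares of all tested genes given above (32.5% higher and 34.2% lower by TMM scaling, 14.4% and 19.1% past the limit, and 16.2% and 55.0% by total count). Among 30 upstream regulators, 14 passed as higher and 10 as lower in acidosis (median 0.18 on the log2 scale), and 8 passed as higher and 16 as lower with scaling by total count. TFE3 and TFEB, transcription factors that activate autophagy and lysosome genes, were among the higher ones. TFE3 was at 50 and 58 CPM in control, 57.2 and 57.9 CPM with SRPIN340, and 301, 286 and 297 CPM in acidosis. TFEB was at 4.07 and 3.86 CPM in control, 5.09 and 6.38 CPM with SRPIN340, and 16.4, 17.9 and 14.8 CPM in acidosis. In both genes the acidosis samples were above all others: the log2 fold change against control was 2.45 for TFE3 (adjusted p = 2.1e-08, standard error 0.0851) and 2.04 for TFEB (adjusted p = 7.14e-06, standard error 0.185). Both SRPIN340 samples of TFEB were also above both control samples, a difference of 0.53 that did not pass in edgeR (adjusted p = 0.198).
FLCN, which encodes folliculin, rose from 30.2 and 33.9 CPM to 120, 109 and 116 CPM (log2 fold change 1.85, adjusted p = 1.82e-07). Folliculin and its partner FNIP1 regulate the Rag GTPases and the cytoplasmic retention of TFE3. FNIP1 (1.59), TSC1 (1.31), RHEB (1.20) and RRAGD (1.01), further parts of mTORC1 signaling and named after their values had been seen, were also higher past the limit. TSC1 restrains RHEB, the activator of mTORC1, and both rose. These 7 genes passed as higher with scaling by total count as well, with log2 fold changes from 0.44 for RRAGD to 1.87 for TFE3. Other parts of mTORC1 signaling in the list did not rise together with them. By TMM scaling, MTOR (-0.77), RRAGA (-0.93) and RRAGB (-0.96) passed as lower and TSC2 (0.86) as higher, while RPTOR, MLST8 and RRAGC did not pass. With scaling by total count, TSC2 (0.29) did not pass, and RPTOR, MLST8 and RRAGC passed as lower too.
DEPTOR, a protein that binds and inhibits mTOR, had the largest fall of the list, from 3.1 and 3.51 CPM in control to 0.475, 0.459 and 0.43 CPM in acidosis (log2 fold change -2.84, adjusted p = 5.87e-05, standard error 0.349). It was measured at low counts, 86 and 100 in control and 8, 5 and 5 in acidosis. The AMPK subunit genes PRKAA2 (-1.06) and PRKAG1 (-1.01), also named after their values had been seen, were lower past the limit. Of the other AMPK genes in the list, PRKAA1 (-0.64) passed as lower and PRKAB1 (0.51) as higher. With scaling by total count, PRKAB1 was at -0.06 and did not pass. In SRPIN340 samples, PRKAA2 was at 89.5 and 101 CPM against 72.3 and 59.7 CPM in control, a difference of 0.53 that did not pass in edgeR (adjusted p = 0.082) and passed in DESeq2 (adjusted p = 0.0128) and, in edgeR, without the second acidosis sample (0.0498).
Of the 30 upstream regulators, 1 passed with SRPIN340 in edgeR. This was AKT1S1, named after its values had been seen, which encodes PRAS40, an inhibitory component of mTORC1. It was at 73.4 and 77.7 CPM in control, 50.6 and 49.7 CPM with SRPIN340, and 82.4, 86.9 and 81.3 CPM in acidosis. The SRPIN340 samples were the lowest, with a log2 fold change of -0.59 (adjusted p = 0.0138, standard error 0.0864). DESeq2 gave an adjusted p of 9.2e-07. The call was lost with the replicate number as a block (adjusted p = 0.0672) and without any 1 of the 4 samples (0.0537 to 0.185).
Of 17 other core genes, such as further ATG4 proteases and WIPI proteins, 7 passed as higher and 4 as lower, none of them past the limit, with a median of 0.28. With scaling by total count, 1 passed as higher and 8 as lower.
Of 18 genes for the fusion of autophagosomes with lysosomes, 2 passed as higher and 8 as lower, with a median of -0.29, and with scaling by total count 0 and 14 passed. VPS33A, a subunit of the HOPS tethering complex, fell from 70.1 and 73.1 CPM to 14.7, 19.5 and 17.5 CPM (log2 fold change -2.06, adjusted p = 3.3e-07, standard error 0.117). SNAP29, the SNARE that pairs with syntaxin 17 on autophagosomes, fell from 99.4 and 87.8 CPM to 27.3, 45.4 and 30.8 CPM (-1.45, adjusted p = 5.17e-05, standard error 0.175). TECPR2 (-1.18) and VPS18 (-1.12), the latter also a HOPS subunit, were lower past the limit too. In all 4 genes the acidosis samples were below all samples at pH 7.4.
Among 22 genes of mitophagy and ER-phagy, the selective removal of mitochondria and endoplasmic reticulum, 9 passed as higher and 10 as lower (median -0.11), and with scaling by total count 1 and 14. Past the limit, 4 of the 22 were lower. BNIP3, a mitophagy receptor of the outer mitochondrial membrane, fell from 30.1 CPM in both control samples to 7.6, 9.73 and 9.03 CPM (log2 fold change -1.79, adjusted p = 2.14e-06, standard error 0.135). The ER-phagy receptors RETREG1 (-1.44) and TEX264 (-1.17) and the ubiquitin ligase TRIM5 (-1.08) were the others.

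**Figure D4:**
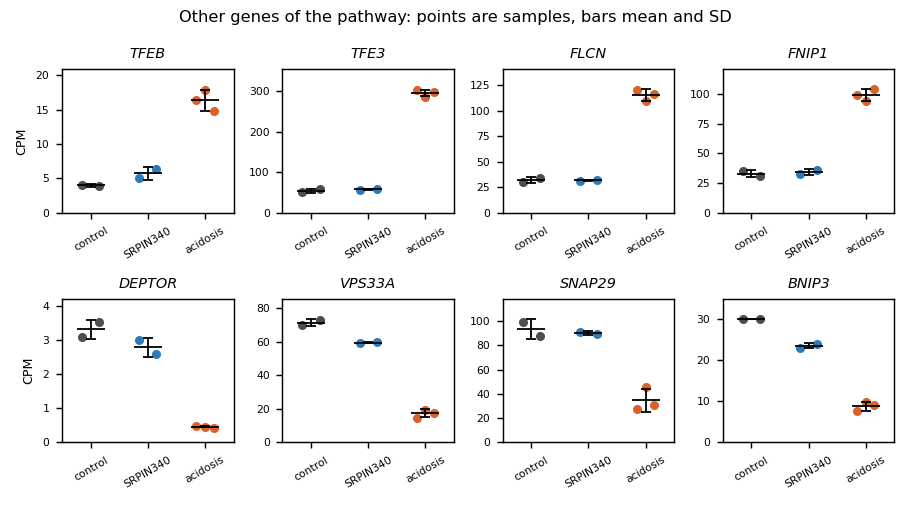
TMM-scaled CPM (y axis, from 0, a separate scale for each gene) of 8 genes from the further lists in control, SRPIN340 and acidosis samples. Points are single samples and bars are the mean with the SD. TFEB, TFE3, FLCN and FNIP1 were higher in every acidosis sample than in any other sample, and DEPTOR, VPS33A, SNAP29 and BNIP3 were lower, with the same directions under scaling by total count. DEPTOR had only 5 to 8 counts in the acidosis samples.

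The dependence on scaling can be followed gene by gene. Between TMM scaling and total count, the log2 fold changes of all members moved down by nearly the same step, so the order of the genes was kept while the zero line shifted. Of 20 members with a positive estimate, 10 stayed positive. ATG12, MAP1LC3A, MAP1LC3B, GABARAP, GABARAPL1, SQSTM1 and OPTN passed as higher under both scalings. ULK2, ATG101, ATG14, PIK3R4, WIPI2, ATG5, ATG7 and ATG16L1 passed as lower under both, and RB1CC1, BECN1, PIK3C3, AMBRA1, WIPI1, ATG3, ATG4B, ATG10 and NBR1 passed as lower with scaling by total count alone. ULK1, ATG13, UVRAG, ATG2B, ATG9A, ATG4A, GABARAPL2, NBR1, TAX1BP1 and CALCOCO2 passed as higher with TMM scaling and not with scaling by total count.

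**Figure D5:**
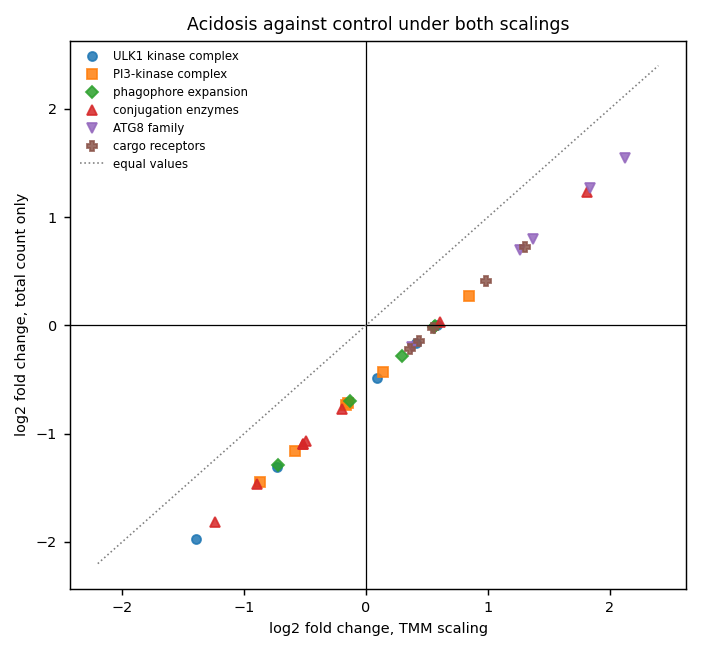
Log2 fold changes of the 34 autophagy genes in acidosis against control with TMM scaling (x axis) and with libraries scaled by total count (y axis), marked by role. The dotted line marks equal values. All points lie below it, and the 10 genes to the right of 0 and below it, GABARAPL2, NBR1, TAX1BP1 and CALCOCO2 among them, turn from higher to lower.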

How the data were processed

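The authors trimmed reads with Trimmomatic 0.39 and Trim Galore 0.6.6 and quantified them with Salmon 1.5.1 against a Gencode GRCh38.p13 transcriptome (tools and versions per the labels and methods). The deposited table holds estimated counts per gene, summed by the authors with tximport and not normalized between samples. The tximport option is not given in the sources used here. All 7 columns were assigned to a sample by name. The samples are called repeats in the labels, with 1 column each, so p-values measure the spread between these samples.

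After rounding, all 7 samples entered 1 quasi-likelihood fit with TMM scaling and the filterByExpr filter (edgeR 4.0.16, R 4.3.3). P-values were adjusted by Benjamini-Hochberg over 14863 genes. A gene passed at an adjusted p under 0.05, and the limit of size was an absolute log2 fold change over 1. Standard errors and 95% intervals derive from the test statistic. CPM use TMM-scaled totals. DESeq2 1.42.0, RLE size factors, scaling by total count, other filters, fits with 2 groups only, a replicate block and single samples left out were alternatives.

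The members, the further lists and the gene pairs were chosen with earlier results of these data known. The value of 1 marker gene is not reported here. Full values were given for members past the limit in acidosis, for those passing with SRPIN340, for all ATG8 and receptor genes and, in a role group with none of these, for the smallest adjusted p. From each further list, up to 4 genes past the limit with the largest change and at least 1 CPM, plus TFEB and TFE3, were named. Other members with values were chosen after these were seen. Gene positions come from GENCODE release 44 (GRCh38). The tests were run on simulated data, 14863 genes of which 200 were changed. There edgeR recovered 84.5% with 5 false calls for acidosis and 82.5% with 14 for SRPIN340, and DESeq2 recovered 84.5% with 25 and 81.5% with 23. In the measured libraries, 9917 of 14863 genes passed in acidosis against control, and recovery with that many genes changed was not tested. Recovery was also not tested for changes as small as those of the members with SRPIN340 (-0.29 to 0.61 on the log2 scale). The percentages recovered therefore cannot be read as recovery of such small changes.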

Additional observations from a re-analysis of the deposited data

How the results depend on the processing

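RLE size factors and fits on only the 2 groups compared changed no call against control among the members and named genes, except that PRKAA2 passed as higher with SRPIN340 when only those 2 groups were fitted (0.53, adjusted p = 0.0439), and moved no count of members by more than 1. With scaling by total count, acidosis gave 7 members higher and 17 lower than control (3 and 10 past the limit), and the median of the members was -0.25. Against SRPIN340 it gave 7 higher and 18 lower (2 and 10 past the limit). Of the 14863 genes tested with that scaling, 815 were higher and 5202 lower past the limit against control, and 775 and 5505 against SRPIN340. ULK1 (-0.16), RB1CC1 (-0.48), BECN1 (-0.43), ATG2A (-0.28), ATG2B (-0.013), ATG9A (-0.0085), GABARAPL2 (-0.20), NBR1 (-0.22), TAX1BP1 (-0.14) and CALCOCO2 (-0.021) then turned negative in acidosis against control. That scaling does not correct for the larger share of counts held by the most abundant genes in acidosis. TMM scaling in turn takes most genes as unchanged, whereas 9917 of 14863 genes passed with it in acidosis against control. Which scaling lies nearer to the true levels was not tested.

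With single samples left out, the members passing in acidosis against control were 15 to 18 higher and 7 to 9 lower (6 to 8 and 2 to 3 past the limit), and the median was 0.21 to 0.40. Against SRPIN340 they were 15 to 19 higher and 7 to 11 lower (6 to 7 and 2 to 4 past the limit). The shares of all tested genes were not tabulated for these fits. With all samples, the shares against control were 32.5% higher and 34.2% lower (14.4% and 19.1% past the limit). Against SRPIN340 they were 32.8% and 35.0%, with 2213 and 2935 of 14863 genes past the limit. With SRPIN340 against control, 0 to 1 members passed. ATG4B passed as lower in acidosis with DESeq2 (adjusted p = 0.029), without the filter (0.0373) and at a mean count of at least 50 (0.0405).

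Samples with the same replicate number showed little common deviation (correlations of deviations from the group means from -0.11 to 0.06). In the control and SRPIN340 groups, with 2 samples each, the deviations mirror each other. The check therefore cannot decide whether a number marks a shared origin. With the replicate block, 26 members passed in acidosis against control in place of 25, 0 in place of 1 passed with SRPIN340 (ULK2, adjusted p = 0.0672), and ATG10 passed as lower (-0.83, adjusted p = 0.0116). The cause of these shifts was not tested. At 13615816 to 24110460 counts per library, MAP1LC3B2 had 3 to 24 counts, and the standard error of its log2 fold change was 0.744.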
